A study of Mus musculus with 8 samples.

Results

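Chromatin remodelers, histone deacetylases and Polycomb genes were followed while mouse germ cells became pluripotent in culture. The members were the genes whose symbol on the array, or whose current symbol, names a histone deacetylase (Hdac), a sirtuin (Sirt), a chromobox protein (Cbx), a CHD or SMARC remodeler, a bromodomain protein (Brd), Suv39h1 or Suv39h2, or the Polycomb genes Ezh1, Ezh2, Eed, Suz12, Ring1, Rnf2, Bmi1 and Jarid2. They were 62 genes of the 16390 named on the array, each read from its brightest probe. Some further genes that meet the same rule, among them Hdac1, Hdac8 and Smarcd2, were matched to no named probe and are not analysed here. All cells carried a Nanog-GFP reporter, and each group had 2 arrays: primordial germ cells taken at E11.5 (E11.5 PGC), cells cultured for 3 days (Day3) or 6 days (Day6), and EG cells, that is embryonic germ cells, the pluripotent lines that germ cells give rise to. The series' design text says that candidate pluripotent cells were purified by FACS during culture. Per the labels, the medium held 15% serum replacement, LIF and bFGF, together with PD325901 at 1 µM, which blocks MEK, CHIR99021 at 3 µM, which blocks GSK3, and A83-01 at 250 nM, which blocks Activin and Nodal receptors. This text stands on every sample, E11.5 PGC included, while the sample names give the inhibitors for the cultured and EG cells alone. The labels do not say whether the 2 arrays of a group came from separate cultures or lines, nor the sex of the cells, so p-values measure the spread between these arrays, which may be technical.

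Many of these proteins help set how tightly DNA is packed, while some, such as the mitochondrial sirtuins, act mainly elsewhere in the cell. Histone deacetylases strip acetyl groups from histones and from other proteins, and Polycomb complexes place repressive marks on developmental genes. Heterochromatin protein 1 (HP1) binds histone H3 methylated at lysine 9, and the SWI/SNF, ISWI and CHD remodelers use ATP to move nucleosomes. Bromodomain proteins bind acetylated lysines. Germ cells of this stage are known for a genome-wide reset of DNA methylation and histone marks, and embryonic stem cells for an open chromatin in which Polycomb holds lineage genes silent.

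Each array measured 21126 to 22404 of 23473 probes, and medians of the authors' scaled intensity ran from 19.99 to 20.01. The summed intensity of 9 germ cell markers was 10592 to 17561 on the E11.5 PGC arrays, 7198 to 8594 on the Day3 arrays, 1477 to 4058 on the Day6 arrays and 1573.5 to 2056 on the EG arrays. The sum of 8 pluripotency markers was 3858 to 3865, 11411 to 13194, 16840 to 20312 and 15475 to 22597 in the same order of groups. The sum of 8 fibroblast and mesenchyme markers was 97.2 and 142 on the E11.5 PGC arrays and 295 and 444 on the Day3 arrays. It was 2664 and 147 on the Day6 arrays, and 1029 and 351 on the EG arrays. On Day6 replicate 1, where it was highest, S100a4, Thy1 and Acta2 read 1335, 747 and 198, and Col1a1 and Col1a2 also peaked. Dcn and Col3a1 were highest on Day3 replicate 2 (173 and 137), and Pdgfrb stayed between 28.5 and 44.2 on all arrays. On EG replicate 1, S100a4 read 808. The sum of 7 gonadal somatic markers stayed between 32.5 and 58.2 on all arrays. The sum of the 3 blood markers with a probe was 57.1 and 50.8 on the E11.5 PGC arrays, 29.8 and 25.4 on the Day3 arrays, 219 and 111 on the Day6 arrays, and 216 and 275 on the EG arrays, so it was higher at Day6 and in EG, where Laptm5 held most of it. The sum of 4 endothelial markers, mostly Pecam1, was 209.9 and 399.7, 139 and 225, 87.8 and 183, and 65.9 and 85.5 in the same order, lowest on average in EG. Bright markers led the sums, such as Dppa3 with 10543 on E11.5 PGC replicate 1, and some markers did not follow their sum. Tfcp2l1, a pluripotency marker, read 16.1 and 24.0 on the E11.5 PGC arrays and 9.63 and 10.4 on the EG arrays. Esrrb, another pluripotency marker, stayed between 7.2 and 28.3 on all arrays. The germ cell marker Prdm14 stayed between 117 and 172. Tyrobp, a blood marker, read 43.3 and 34.6 on the E11.5 PGC arrays and 11.2 and 10.4 on the EG arrays. Tek, an endothelial marker, read 1.74 and 1.91 on the E11.5 PGC arrays and 7.02 and 21.5 on the Day6 arrays. No marker was listed at 0, and Cdh5, Gata4, Amh and Nr5a1 had no value on some arrays. The part of other cells in the results below was not tested, and fewer cells with a transcript cannot be told apart from less RNA per cell. Array names in the labels form 2 series: series A holds both EG arrays and replicate 1 of each other group, and series B replicate 2 of the other groups. Results without a term for the series are given first and those with the array series as a block beside them. In EG comparisons the block rests on the series difference being the same in every group.

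In EG cells 4 members rose and 3 fell relative to E11.5 PGC. The deacetylase genes Hdac6, Hdac10 and Hdac11 and the remodeler gene Chd7 rose, and Hdac2, Sirt4 and the SWI/SNF core gene Smarcb1 fell. These 7 of 62 members (11.3%) passed an adjusted p of 0.05 (limma, Benjamini-Hochberg over all probes tested), against 11.2% of all probes (5.57% higher and 5.61% lower), so the members' share was near the background. At Day6, 3 of 60 members passed (Hdac6 higher, Sirt4 and Suv39h1 lower) against 8.61% of all probes (4.34% higher and 4.28% lower). At Day3, limma called 0 of 62 members against 2.08% of all probes (1.33% higher and 0.754% lower), with 13 members and 14.4% of all probes at an unadjusted p under 0.05. With the array series as a block the calls at Day3 were 1 higher and 7 lower, against 4.34% and 4% of all probes (8.34% in either direction). At Day6 they were 4 higher and 14 lower, against 9.5% and 14.3% (23.8% in either direction), and in EG 5 higher and 12 lower, against 9.24% and 14.4% (23.6% in either direction).

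Most members lay below their E11.5 PGC level, as did most of all probes. The share of members was 74.2% at Day3, 73.3% at Day6 and 74.2% in EG. Over all probes tested it was 61.9%, 61% and 59.3%. The median log2 change of the members was -0.23 at Day3, -0.36 at Day6 and -0.38 in EG, against -0.13, -0.16 and -0.16 over all probes tested. With quantile normalization the EG median over all probes was -0.10. Among called members, Hdac2 then changed by -1.57, Smarcb1 by -1.06, Hdac6 by 1.81 and Chd7 by 2.37, all higher than without it. Hdac10, Hdac11 and Sirt4 moved less, to 1.47, 1.19 and -1.65. The members were bright (median intensity 95.3). How far scaling makes up their gap from all probes, here and for the gene groups below, was not tested. Both EG arrays lay under both E11.5 PGC arrays for 38 of 62 members, compared with 39.9% of all probes, and above both for 12, compared with 24.3%. At Day6 both arrays lay under E11.5 PGC for 23 of 60 members (31% of all probes) and above for 6 (18.6%), and at Day3 under for 23 of 62 (25.3%) and above for 8 (15.8%). The counts of calls changed when arrays were left out, and fewer of all probes were called then too. In EG, 1 member was called without E11.5 PGC replicate 1, and 0 without E11.5 PGC replicate 2 or either EG array. At Day6 the count was 0 without either E11.5 PGC array or Day6 replicate 1, and 2 without Day6 replicate 2. With the block, leaving out E11.5 PGC replicate 1, E11.5 PGC replicate 2, and then replicate 1 and 2 of the other group gave 5, 15, 6 and 6 calls in EG, 6, 13, 3 and 11 at Day6, and 0, 2, 0 and 0 at Day3.

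**Figure D1:**
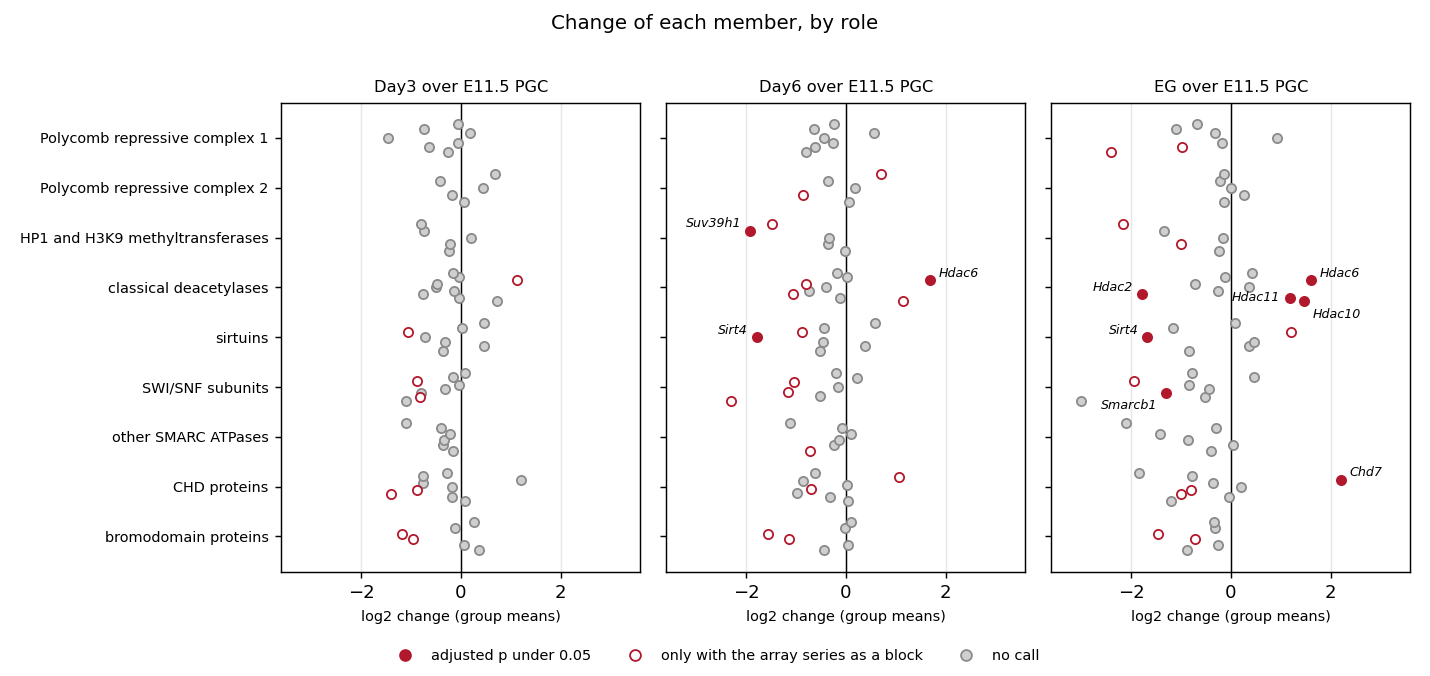
Log2 change of each tested member over E11.5 PGC (horizontal axis, group means of 2 arrays) at Day3, Day6 and in EG, with members grouped by role down the page. Filled red points passed an adjusted p of 0.05 and open red points passed only with the array series as a block; in the EG panel Chd7, Hdac6, Hdac10 and Hdac11 stand on the right and Hdac2, Sirt4 and Smarcb1 on the left.

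Among the 9 classical deacetylases tested in EG, 3 rose, 1 fell and 5 gave no call, with a median change of 0.37; over all probes 5.57% rose and 5.61% fell, with a median of -0.16. Hdac6 encodes a mostly cytoplasmic enzyme known for deacetylating tubulin, and lies on the X chromosome. Its intensity was 128 and 142 on the E11.5 PGC arrays, 228 and 385 on the Day3 arrays, 359 and 524 on the Day6 arrays, and 400.4 and 419 on the EG arrays. Every cultured and every EG array lay above both E11.5 PGC arrays. The log2 change was 1.68 ± 0.35 at Day6 (standard error, n = 2 arrays per group; limma adjusted p = 0.0291) and 1.60 ± 0.35 in EG (adjusted p = 0.0299), a fold of 3.21 and 3.03. At Day3 it was 1.13 ± 0.35 (adjusted p = 0.185), a call with the block (0.0313). Within series A and B the Day6 change was 1.49 and 1.88. Leaving out any of the 4 arrays compared ended the Day6 call (adjusted p from 0.0509 to 0.148) and the EG call (0.129 to 0.187), while the change stayed between 1.41 and 1.96 at Day6 and between 1.52 and 1.68 in EG.

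Hdac2, a class I enzyme and catalytic subunit of the NuRD, Sin3 and CoREST complexes, moved the other way. It read 1547 and 1569 on the E11.5 PGC arrays, 877 and 957 on the Day3 arrays, 584 and 946 on the Day6 arrays, and 459 and 442 on the EG arrays. E11.5 PGC lay above every later array, and EG lay lowest. The EG change was -1.79 ± 0.30 (adjusted p = 0.0145), and the F test over the 4 groups passed as well (adjusted p = 0.0396). At Day6 the change was -1.07 ± 0.30 (adjusted p = 0.079), a call with the block (0.0207). Leaving out any of the 4 arrays kept the EG change between -1.82 and -1.76 but ended the call (adjusted p from 0.0744 to 0.125).

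Hdac10, known as a polyamine deacetylase, read 8.78 and 10.3 on the E11.5 PGC arrays, 13.5 and 18.4 on the Day3 arrays, 18.98 and 23.3 on the Day6 arrays, and 26.8 and 25.6 on the EG arrays. Each group lay above the one before it without overlap. It rose by 1.46 ± 0.29 in EG (adjusted p = 0.0224). At Day6 the change was 1.14 ± 0.29 (adjusted p = 0.0546), a call with the block (0.0085). Hdac11, the class IV enzyme, read 6.34 and 4.89 on the E11.5 PGC arrays, 4.80 and 6.10 on the Day3 arrays, 5.54 and 4.70 on the Day6 arrays, and 12.9 and 12.5 on the EG arrays. EG stood apart from the other groups, which overlapped each other and lay close to 4.24, the upper limit of the dimmest 25% of probes. The EG change was 1.19 ± 0.28 (adjusted p = 0.0393). Leaving out any of the 4 arrays ended both EG calls (adjusted p from 0.0977 to 0.152 for Hdac10 and from 0.0943 to 0.214 for Hdac11).

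The other deacetylases gave no call without the block. Hdac5, a signal-regulated class IIa enzyme, read 405 and 419.6 on the E11.5 PGC arrays, 281 and 310.4 on the Day3 arrays, 209 and 269 on the Day6 arrays, and 262 and 239 on the EG arrays. It lay lower in each later group than in E11.5 PGC without overlap, and fell at Day6 with the block (-0.80 ± 0.20, adjusted p = 0.0308; 0.118 without it). Hdac3, the catalytic subunit of the NCoR and SMRT complexes, changed by -0.25 ± 0.40 in EG, and the class IIa gene Hdac4 by 0.37 ± 0.39. Hdac7 and Hdac9, also class IIa, were dim on every array, and Hdac7 had the narrowest range of group means of the deacetylases, 0.13 on the log2 scale.

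Promoters of members called in EG are shown so that the sequence at each start can be seen beside its direction. Of the 7 genes, Hdac2, Hdac6, Hdac11, Sirt4 and Smarcb1 have an entry in the RefSeq table (build GRCm38.p6; 52 of the 62 members matched), which gives 250 bases before to 50 after the start; Chd7 and Hdac10 are named only. The motifs searched on both strands were the GC box GGGCGG, the CCAAT box, the E-box CACGTG, the cyclic AMP element TGACGTCA and the STAT motif TTCNNNGAA. Among 32851 promoters of that set, 35.7% hold a GC box, 37.4% a CCAAT box, 7.15% the E-box, 1.79% the cyclic AMP element and 8.3% the STAT motif. Of the genes that rose, Hdac6 (chrX:7947840-7948139, minus strand) had 5 GC boxes and 2 CCAAT boxes, and Hdac11 (chr6:91156565-91156864, plus strand) had 1 of each. Hdac2 (chr10:36974294-36974593, plus strand) had 1 GC box, Smarcb1 (chr10:75921565-75921864, minus strand) had 3, and Sirt4 (chr5:115484248-115484547, minus strand) had 0 matches; these 3 genes fell. Capitals mark the matches, which did not overlap, and sequences run 5′ to 3′ along the gene.
Hdac6: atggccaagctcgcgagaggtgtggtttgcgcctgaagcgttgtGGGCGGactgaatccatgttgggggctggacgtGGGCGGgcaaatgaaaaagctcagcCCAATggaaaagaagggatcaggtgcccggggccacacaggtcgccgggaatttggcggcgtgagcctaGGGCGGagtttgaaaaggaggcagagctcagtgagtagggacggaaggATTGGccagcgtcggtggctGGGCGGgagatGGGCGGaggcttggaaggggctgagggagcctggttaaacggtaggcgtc
Hdac11: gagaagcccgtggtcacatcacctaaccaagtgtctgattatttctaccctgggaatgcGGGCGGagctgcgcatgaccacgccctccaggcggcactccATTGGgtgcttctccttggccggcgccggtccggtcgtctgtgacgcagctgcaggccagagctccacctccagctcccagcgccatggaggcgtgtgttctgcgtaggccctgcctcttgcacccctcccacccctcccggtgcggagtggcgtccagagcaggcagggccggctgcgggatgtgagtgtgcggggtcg
Hdac2: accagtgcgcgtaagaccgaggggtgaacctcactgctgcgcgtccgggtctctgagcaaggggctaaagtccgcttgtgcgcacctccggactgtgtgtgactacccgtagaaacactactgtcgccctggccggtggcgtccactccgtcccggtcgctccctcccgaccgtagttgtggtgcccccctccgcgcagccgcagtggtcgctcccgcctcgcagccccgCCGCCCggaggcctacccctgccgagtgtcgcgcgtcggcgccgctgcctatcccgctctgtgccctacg
Smarcb1: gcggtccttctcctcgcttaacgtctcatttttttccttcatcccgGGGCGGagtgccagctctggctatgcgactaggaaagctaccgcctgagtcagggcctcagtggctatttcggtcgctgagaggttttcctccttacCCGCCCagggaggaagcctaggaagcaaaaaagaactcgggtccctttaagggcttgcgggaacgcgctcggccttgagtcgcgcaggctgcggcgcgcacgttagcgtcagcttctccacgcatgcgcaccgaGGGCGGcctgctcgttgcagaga
Sirt4: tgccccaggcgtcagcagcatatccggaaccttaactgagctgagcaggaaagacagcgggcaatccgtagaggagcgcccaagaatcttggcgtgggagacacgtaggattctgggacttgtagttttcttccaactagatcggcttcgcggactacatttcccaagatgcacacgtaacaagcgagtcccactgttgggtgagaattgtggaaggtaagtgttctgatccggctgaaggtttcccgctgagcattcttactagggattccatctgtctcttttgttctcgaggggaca
The windows held 20 (Hdac6), 22 (Hdac11), 36 (Hdac2), 27 (Smarcb1) and 15 (Sirt4) CpG dinucleotides, against a median of 7 over all promoters in the table, so all 5 lay above that median whichever way the gene moved.

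**Figure D2:**
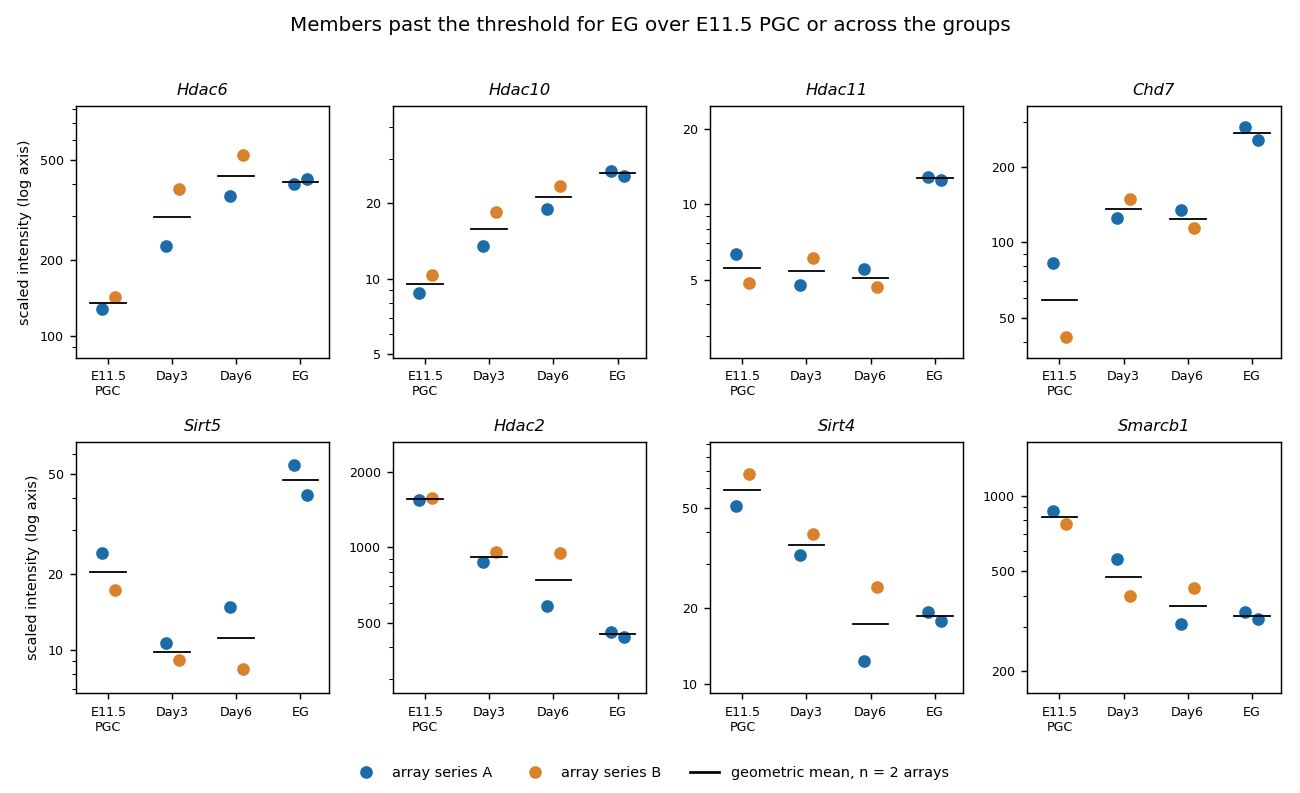
Scaled intensity (log axis) on each array for 8 members, with points coloured by array series and bars at the geometric mean of 2 arrays. Hdac10, Hdac11, Chd7 and Sirt5 are highest in EG, Hdac6 is lowest in E11.5 PGC, and Hdac2, Sirt4 and Smarcb1 are highest in E11.5 PGC.

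Sirt4 and Sirt5, both mitochondrial sirtuins, followed different courses. Sirt4 read 51.04 and 68.5 on the E11.5 PGC arrays, 32.5 and 39.2 on the Day3 arrays, 12.3 and 24.1 on the Day6 arrays, and 19.4 and 17.7 on the EG arrays. All later arrays lay under both E11.5 PGC arrays. It fell by 1.78 ± 0.38 at Day6 (limma adjusted p = 0.0323), with changes of -2.06 within series A and -1.50 within series B, and by 1.68 ± 0.38 in EG (adjusted p = 0.0337). The Day6 call held without Day6 replicate 2 (adjusted p = 0.0195) and ended without each of the other arrays (up to 0.165). The EG call ended without any of the 4 (0.094 to 0.205).

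Sirt5, the mitochondrial desuccinylase, read 24.2 and 17.2 on the E11.5 PGC arrays, 10.6 and 9.08 on the Day3 arrays, 14.8 and 8.34 on the Day6 arrays, and 54.1 and 41.1 on the EG arrays. EG arrays lay above all others, and the cultured arrays under both E11.5 PGC arrays. The F test over the 4 groups called it (adjusted p = 0.0268) with Hdac2 and Chd7, 3 members of 60 against 9.13% of all probes, and with the block it called 20 against 27.5%. EG over Day6 was 2.08 ± 0.37 (adjusted p = 0.0918; 0.0358 with the block), and EG over E11.5 PGC was 1.21 ± 0.37 (0.0832; 0.0445 with the block). Day3 and Day6 stood at -1.05 ± 0.37 and -0.87 ± 0.37 relative to E11.5 PGC, calls with the block only (adjusted p = 0.0498 and 0.0451).

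Of the 7 sirtuins 1 fell, 0 rose and 6 gave no call in EG, with a median of 0.084, against 11.2% of all probes called and their median of -0.16. Sirt1, a nuclear deacetylase, read 324 and 319 on the E11.5 PGC arrays, 214 and 292 on the Day3 arrays, 213 and 234 on the Day6 arrays, and 167 and 192 on the EG arrays. Every later array lay below E11.5 PGC, and the EG change of -0.84 ± 0.28 gave no call (adjusted p = 0.0988). The mitochondrial deacetylase gene Sirt3 changed by 0.46 ± 0.33 in EG without a call. Sirt2, a mostly cytoplasmic enzyme, had the narrowest range of group means of the sirtuins, 0.45.

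Polycomb repressive complex 2, which methylates lysine 27 of histone H3, had 0 of 5 members called without the block at Day3, Day6 or in EG. In these comparisons 2.08%, 8.61% and 11.2% of all probes were called. The median change of the 5 members was 0.068, 0.063 and -0.14, against -0.13, -0.16 and -0.16 over all probes. Eed, the subunit that reads the mark, read 1646 and 1659 on the E11.5 PGC arrays, 2014 and 1489.9 on the Day3 arrays, 1583 and 1883 on the Day6 arrays, and 1457 and 1539.9 on the EG arrays, a range of group means of 0.21. Ezh2, the main methyltransferase, read 889 and 772 on the E11.5 PGC arrays, 1379 and 919 on the Day3 arrays, 875 and 998 on the Day6 arrays, and 786 and 880.4 on the EG arrays. E11.5 PGC and EG overlapped. Suz12, a core subunit, read 721 and 794 on the E11.5 PGC arrays, 1160.5 and 1263 on the Day3 arrays, 1238 and 1239 on the Day6 arrays, and 631 and 743 on the EG arrays. Both culture days lay above E11.5 PGC and EG without overlap. The Day6 change was 0.71 ± 0.25 (adjusted p = 0.14), a rise with the block (0.0436). Ezh1, the paralog of Ezh2, read 48.1 and 42.6 on the E11.5 PGC arrays, 35.8 and 45.3 on the Day3 arrays, 23.3 and 26.5 on the Day6 arrays, and 56.9 and 51.4 on the EG arrays. Its Day6 arrays were the lowest, and the Day6 change of -0.87 ± 0.27 (adjusted p = 0.0988) was a call with the block (0.0307). Jarid2, an accessory protein of the complex, changed by -0.21 ± 0.44 in EG without a call.

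Polycomb repressive complex 1, which holds a RING finger ubiquitin ligase and a chromobox subunit, had 0 of 7 members called without the block. Of all probes 2.08% were called at Day3, 8.61% at Day6 and 11.2% in EG. The median of the 7 members was -0.25 at Day3, -0.43 at Day6 and -0.68 in EG. Over all probes it was -0.13, -0.16 and -0.16. Cbx2, a chromobox subunit known for its part in gonad development, read 44.8 and 50.03 on the E11.5 PGC arrays, 30.4 and 30.8 on the Day3 arrays, 28.5 and 33.01 on the Day6 arrays, and 22.4 and 25.6 on the EG arrays. E11.5 PGC lay above every later array. The EG change was -0.98 ± 0.25 (adjusted p = 0.0514), a call with the block (0.0245). Cbx7, the main chromobox subunit of embryonic stem cells, read 186 and 173 on the E11.5 PGC arrays, 26.98 and 156 on the Day3 arrays, 65.96 and 267 on the Day6 arrays, and 382 and 304 on the EG arrays. EG stood above E11.5 PGC by 0.93 ± 0.89 without a call (adjusted p = 0.558), and the culture arrays were split by series. Within series A the Day3 array differed from E11.5 PGC by -2.78, and within series B by -0.15. Bmi1, a RING finger partner, read 12.8 and 20.6 on the E11.5 PGC arrays, 7.88 and 23.6 on the Day3 arrays, 4.13 and 20.99 on the Day6 arrays, and 2.91 and 3.20 on the EG arrays, so that EG lay in the dimmest 25%. Its EG change of -2.41 ± 0.81 gave no call (adjusted p = 0.105), and -1.64 ± 0.41 was a call with the block (0.0313). The ligase genes Rnf2 and Ring1 changed by -0.68 ± 0.33 and -1.10 ± 0.41 in EG, without a call in either fit. Cbx6 had the narrowest range of group means, 0.26. Its paralog Cbx8 changed by -0.32 ± 0.37 in EG without a call in either fit.

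Suv39h1 and Suv39h2 encode the enzymes that trimethylate lysine 9 of histone H3 at heterochromatin. Suv39h1, on the X chromosome, read 18.9 and 11.7 on the E11.5 PGC arrays, 11.1 and 7.09 on the Day3 arrays, 3.50 and 4.46 on the Day6 arrays, and 4.12 and 8.45 on the EG arrays. Day6 and EG lay under E11.5 PGC. It fell by 1.91 ± 0.45 at Day6 (limma adjusted p = 0.0451), where 1 array was under the limit of the dimmest 25%, and centring ended the call (adjusted p = 0.0584). Without any of the 4 arrays the adjusted p was 0.0748 to 0.22. Suv39h2 read 90.1 and 196 on the E11.5 PGC arrays, 40.6 and 144 on the Day3 arrays, 26.03 and 88.3 on the Day6 arrays, and 30.1 and 29.3 on the EG arrays. It changed by -2.16 ± 0.77 in EG without a call (adjusted p = 0.123), and with the block it fell by 1.47 at Day6 (0.00796) and by 1.38 in EG (0.0135). Of the HP1 genes, Cbx1 (HP1 beta) had a range of group means of 0.24, and Cbx5 (HP1 alpha) changed by -0.16 ± 0.51 in EG. Cbx3 (HP1 gamma) read 657 and 453 on the E11.5 PGC arrays, 602 and 363 on the Day3 arrays, 481 and 374 on the Day6 arrays, and 273 and 269 on the EG arrays. Its EG change was -1.01 ± 0.35 (adjusted p = 0.117), a call with the block (0.00942), but the second Cbx3 probe changed by -0.49 ± 0.40 and gave no call in either fit (0.663 with the block).

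The core SWI/SNF subunit gene Smarcb1, known as a tumour suppressor, read 867 and 772 on the E11.5 PGC arrays, 559 and 399 on the Day3 arrays, 309 and 429 on the Day6 arrays, and 344 and 322 on the EG arrays. E11.5 PGC was highest without overlap. It fell by 1.30 ± 0.30 in EG (limma adjusted p = 0.0377), a call that ended with quantile normalization (-1.06, adjusted p = 0.0565) and without any of the 4 arrays (0.145 to 0.224). At Day6 the change was -1.17 ± 0.30 (adjusted p = 0.0607), a call with the block (0.024). It was the 1 of 8 SWI/SNF members called in EG, against 11.2% of all probes, and the group median was -0.81, against -0.16.

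Smarca4 (Brg1) and Smarca2 (Brm) encode the alternative motors of the complex. Smarca4 read 769.7 and 669 on the E11.5 PGC arrays, 449 and 366 on the Day3 arrays, 524 and 479.6 on the Day6 arrays, and 525 and 479 on the EG arrays. E11.5 PGC lay above all later arrays, and the Day3 change of -0.82 ± 0.26 was a call with the block only (adjusted p = 0.049). Smarca2 read 27.1 and 55.7 on the E11.5 PGC arrays, 5.11 and 63.7 on the Day3 arrays, 2.33 and 26.8 on the Day6 arrays, and 5.74 and 4.06 on the EG arrays. Its series B array lay above its series A array in E11.5 PGC, Day3 and Day6, by 2.74 in the blocked fit. The changes of -3.01 ± 1.39 in EG and -2.30 ± 1.39 at Day6 gave no call (adjusted p = 0.217 and 0.38); with the block Day6 was a call (0.0407) and EG was not (0.127). Smarcd1, an accessory subunit, read 20.05 and 67.8 on the E11.5 PGC arrays, 12.3 and 32.6 on the Day3 arrays, 9.63 and 32.98 on the Day6 arrays, and 9.82 and 9.47 on the EG arrays. It gave no call without the block, and fell with it by 0.88 at Day3 (adjusted p = 0.0485), 1.05 at Day6 (0.0137) and 1.11 in EG (0.0153). Its paralog Smarcd3 lay higher in EG than in E11.5 PGC without overlap, by 0.46 ± 0.27, without a call in either fit. The scaffold gene Smarcc1 had the narrowest range of group means, 0.44. Its paralog Smarcc2 lay in the dimmest 25% and had no value on Day6 replicate 1.

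The group of SMARC ATPases outside SWI/SNF held 6 members, with the pseudogene Smarca5-ps counted among them. In EG 0 of 6 were called without the block, against 11.2% of all probes. The median was -0.63, against -0.16 over all probes. Smarca5, the ISWI motor Snf2h, read 639.5 and 522 on the E11.5 PGC arrays, 454 and 456 on the Day3 arrays, 455 and 602 on the Day6 arrays, and 279.9 and 361 on the EG arrays. EG lay below the other groups, a change of -0.86 ± 0.29 over E11.5 PGC without a call (adjusted p = 0.108). Its paralog Smarca1 changed by 0.046 ± 0.30. Hltf, listed on the array under its older name Smarca3 and known in DNA damage tolerance, fell at Day6 with the block (-0.71 ± 0.19, adjusted p = 0.0402). Smarcal1, which remodels stalled replication forks, changed by -2.10 ± 1.04 in EG without a call in either fit, and Smarcad1 had the narrowest range of group means, 0.40.

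Chd7, the remodeler mutated in human CHARGE syndrome, had the highest change of the 62 members in EG. It read 82.6 and 41.96 on the E11.5 PGC arrays, 124 and 148 on the Day3 arrays, 134 and 113 on the Day6 arrays, and 287 and 256 on the EG arrays. Both culture days lay above E11.5 PGC and below EG without overlap. The EG change was 2.20 ± 0.37 (limma adjusted p = 0.0136), a fold of 4.60, and the F test gave 0.0407. The call held without E11.5 PGC replicate 1 (2.69, adjusted p = 0.0245) and ended without E11.5 PGC replicate 2 (1.71, 0.0751), EG replicate 1 (2.12, 0.107) or EG replicate 2 (2.29, 0.105). At Day6 the change was 1.07 ± 0.37 (adjusted p = 0.129), a call with the block (0.0491).

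Chd4 and Chd3 encode the motors of the NuRD complex, which joins remodeling to deacetylation. Chd4 read 1231 and 1165 on the E11.5 PGC arrays, 697 and 605 on the Day3 arrays, 852 and 631 on the Day6 arrays, and 741 and 647 on the EG arrays. All later arrays lay below E11.5 PGC, and with the block Chd4 fell by 0.88 at Day3 (adjusted p = 0.0492), 0.71 at Day6 (0.0489) and 0.91 in EG (0.0291). Chd3 read 464 and 228 on the E11.5 PGC arrays, 173 and 88.5 on the Day3 arrays, 163 and 166 on the Day6 arrays, and 162 and 161 on the EG arrays. It fell with the block by 1.39 at Day3 (adjusted p = 0.0399) and 1.33 in EG (0.0288), while the second Chd3 probe changed by -0.24 ± 0.34 and -0.066 ± 0.34, without a call in either fit. Neither gene was called without the block (adjusted p = 0.118 and 0.198 in EG). Their dim paralog Chd5 read 8.17 and 7.25 on the E11.5 PGC arrays and 8.75 and 8.98 on the EG arrays. It changed by 0.20 ± 0.25 in EG without a call in either fit. Chd1, which helps keep stem cell chromatin open, read 66.8 and 166 on the E11.5 PGC arrays, 83.2 and 151 on the Day3 arrays, 60.2 and 196 on the Day6 arrays, and 48.4 and 43.7 on the EG arrays. Its EG change of -1.20 ± 0.66 gave no call. Chd2 had the narrowest range of group means, 0.31. Chd9 had no value on Day6 replicate 1 and lay under 4.24 on the other series A arrays. Of the 9 CHD genes 1 rose, 0 fell and 8 gave no call in EG, where 11.2% of all probes were called.

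Limma called 0 of 6 bromodomain genes at Day3, Day6 and in EG without the block, against 2.08%, 8.61% and 11.2% of all probes. Brd7, a subunit of the PBAF form of SWI/SNF, read 1793 and 984 on the E11.5 PGC arrays, 934 and 364 on the Day3 arrays, 611 and 329.8 on the Day6 arrays, and 499 and 469 on the EG arrays. Every later array lay under both E11.5 PGC arrays. The change was -1.19 ± 0.54 at Day3, -1.57 ± 0.54 at Day6 and -1.46 ± 0.54 in EG. With the block Brd7 fell by 1.19, 1.57 and 1.98 (adjusted p = 0.0254, 0.0047 and 0.00375). Brd3, a BET reader of acetylated histones, read 2187 and 1467 on the E11.5 PGC arrays, 981 and 857 on the Day3 arrays, 830.2 and 788 on the Day6 arrays, and 1077 and 1084 on the EG arrays. It also lay lower in every later group without overlap. Its Day6 change of -1.15 ± 0.29 missed the threshold (adjusted p = 0.0555), and with the block it fell at Day3, Day6 and in EG (adjusted p = 0.0427, 0.0118 and 0.0365). Brd1, a scaffold of acetyltransferase complexes, changed by -0.87 ± 0.44 in EG and the BET gene Brd2 by -0.27 ± 0.30, without a call. Brd8 had the narrowest range of group means, 0.32.

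**Figure D3:**
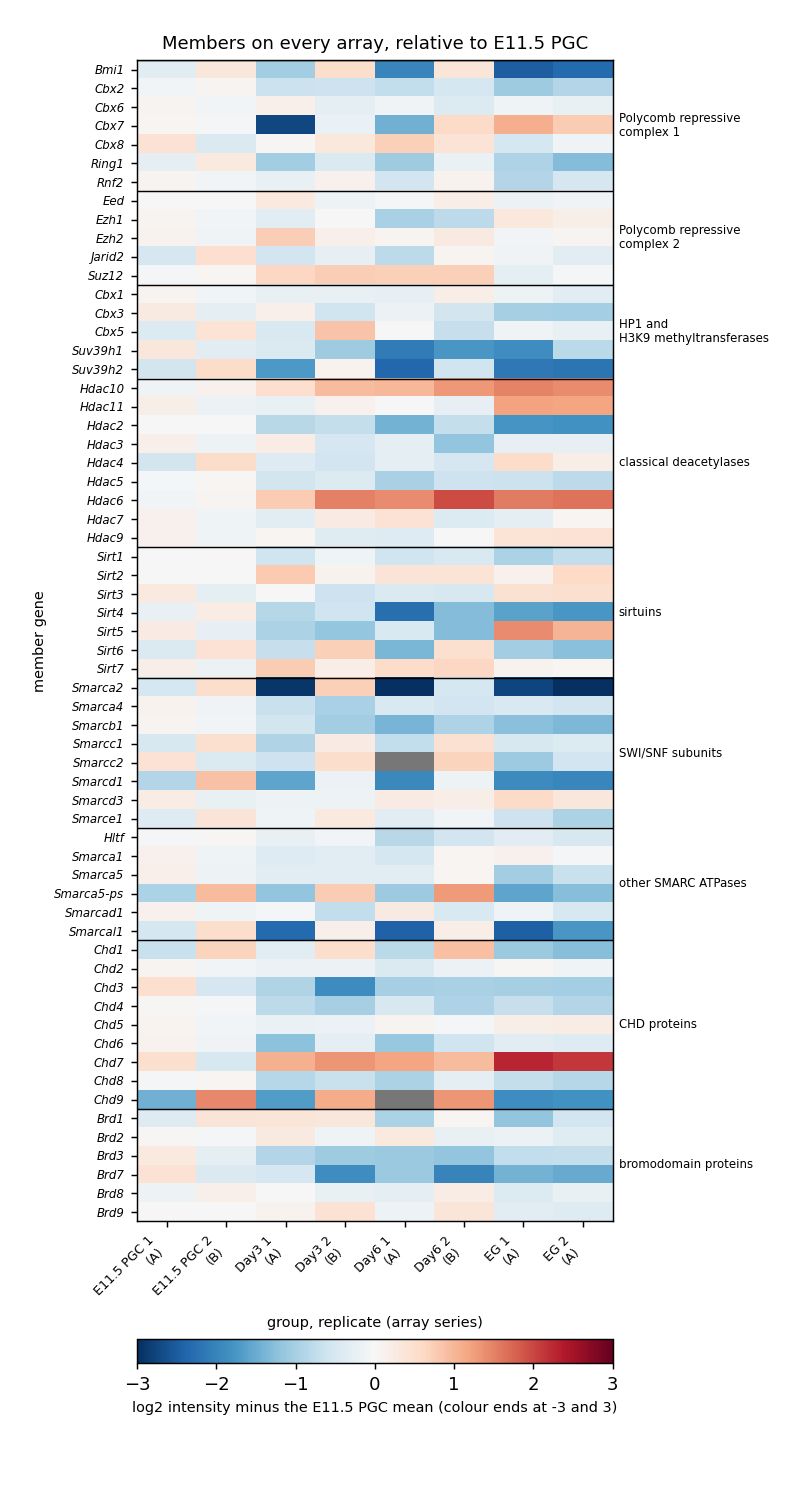
Log2 intensity of each of the 62 members on each array minus the E11.5 PGC mean, with members grouped by role and arrays in the order E11.5 PGC, Day3, Day6 and EG (array series in brackets; grey cells have no value). Hdac6, Hdac10 and Chd7 are red on all culture and EG arrays, Hdac2, Sirt4, Smarcb1 and Brd7 are blue on them, and Smarca2 and Smarcal1 differ between the array series at Day3 and Day6.

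Some members differed between the array series. With the block, 11 of 60 members were higher in series B and 3 lower at an adjusted p of 0.05, against 11.9% and 12.1% of all probes. The higher were Smarca5-ps, Smarcd1, Suv39h2, Smarcc1, Chd1, Sirt6, Smarcal1, Smarca2, Bmi1, Ring1 and Jarid2, and the lower Brd7, Hdac3 and Cbx3. The widest gap was that of Smarca2 (2.74, adjusted p = 0.0153). Smarcal1 read 66.5 and 140.2 on the E11.5 PGC arrays, 19.03 and 107 on the Day3 arrays, 18.1 and 110.2 on the Day6 arrays, and 17.8 and 28.6 on the EG arrays. Its series A arrays at Day3 and Day6 were close to EG replicate 1. Both EG arrays lie in series A, which bears on every EG comparison. Genes without a series call can have a gap too, such as Cbx7 (1.48, limma adjusted p = 0.0645). The 11 genes that were higher in series B are among those concerned. In the fit without the block, a low EG level of these genes cannot be told apart from a low series A level. Within series A alone, the EG change was -2.49 for Smarca2, -2.07 for Bmi1, -1.60 for Suv39h2, -1.56 for Smarcal1 and -1.06 for Smarcd1. Ring1, Sirt6, Chd1 and Smarca5-ps stood at -0.81, -0.71, -0.54 and -0.47, and Smarcc1 and Jarid2 at 0.031 and 0.28. These values rest on 1 E11.5 PGC array.

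**Figure D4:**
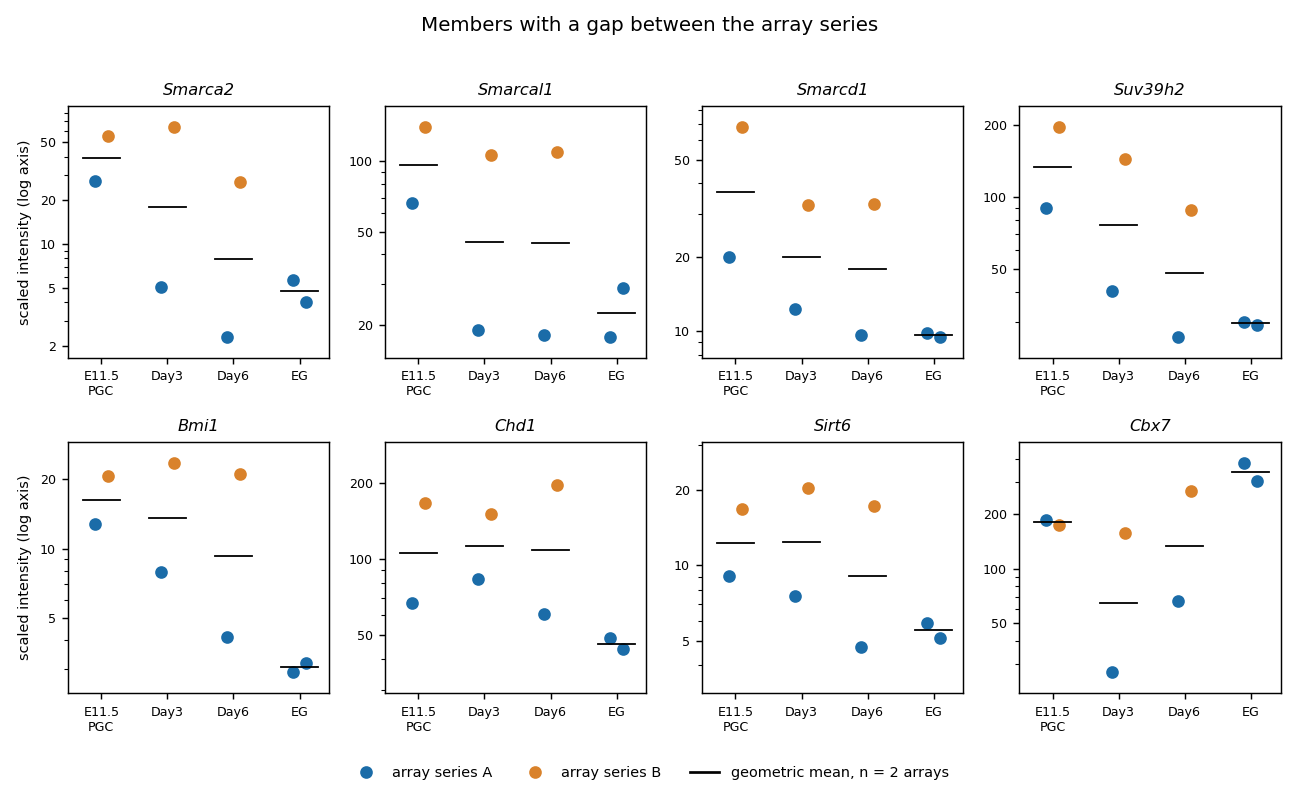
Scaled intensity (log axis) on each array for 8 members, with points coloured by array series and bars at the geometric mean of 2 arrays. In E11.5 PGC, Day3 and Day6 the series B point lies above the series A point for every gene shown, except Cbx7 in E11.5 PGC (173 in series B and 186 in series A).

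The second part of the culture and the step to EG gave few calls. Between Day6 and Day3, limma called 0 of 60 members and 0% of all probes, with 3 members and 8.91% of all probes at an unadjusted p under 0.05. With the block 0 members and 1.8% of all probes were called (0.974% higher and 0.829% lower). Both Day6 arrays lay above both Day3 arrays for 5 members, compared with 13.7% of all probes, and under them for 7, compared with 16.9%. The highest changes were Cbx7 (1.03 ± 0.89), Hdac6 (0.55 ± 0.35) and Hdac10 (0.42 ± 0.29), the lowest Smarca2 (-1.19 ± 1.39), Suv39h1 (-1.17 ± 0.45) and Sirt4 (-1.05 ± 0.38). Between EG and Day6, limma called 0 of 60 members and 0.169% of all probes (0.139% higher and 0.0298% lower), with 9 members and 13% of all probes at an unadjusted p under 0.05. With the block Sirt5 was the 1 member called, against 1.96% of all probes (1.25% higher and 0.716% lower); leaving out any of the 4 Day6 and EG arrays in that fit gave 0 members. Both EG arrays lay above both Day6 arrays for 16 members, compared with 23.4% of all probes, and under them for 15, compared with 22.8%. Besides Sirt5 the highest were Cbx7 (1.36 ± 0.89) and Hdac11 (1.32 ± 0.28), and the lowest Bmi1 (-1.61 ± 0.81), Smarca5-ps, a pseudogene (-1.53 ± 0.99), and Chd1 (-1.24 ± 0.66). The 3 lowest were among the genes higher in series B, and both EG arrays lie in series A. Within series A, Bmi1, Smarca5-ps and Chd1 changed by -0.44, -0.34 and -0.39, and Cbx7 and Hdac11 by 2.37 and 1.20. These values rest on 1 Day6 array.

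Other chromatin genes, 87 partners and enzymes outside the member rule, were read in the same fits; 80 had a named probe and 79 were tested. Of these 1 rose and 0 fell at Day3, 1 rose and 5 fell at Day6, and 1 rose and 7 fell in EG. Of all probes 2.08%, 8.61% and 11.2% were called in either direction in these comparisons. The median changes of the list were -0.19, -0.27 and -0.47, against -0.13, -0.16 and -0.16 over all probes. With the block 1 rose and 6 fell at Day3 (4.34% and 4% of all probes), 7 rose and 19 fell at Day6 (9.5% and 14.3%), and 6 rose and 20 fell in EG (9.24% and 14.4%). Baz1a, the ACF partner of the ISWI motor Smarca5, rose by 2.92 ± 0.34 at Day3 (limma adjusted p = 0.0116) and 2.41 ± 0.34 at Day6. It read 37.3 and 20.5 on the E11.5 PGC arrays, 196 and 224 on the Day3 arrays, 146 and 147 on the Day6 arrays, and 61.8 and 67.8 on the EG arrays. Pcgf5, a RING finger partner in variant Polycomb complex 1, fell by 2.60 ± 0.29 at Day6 and by 2.20 ± 0.29 in EG. It read 452 and 487 on the E11.5 PGC arrays, 247 and 194 on the Day3 arrays, 68.6 and 87.2 on the Day6 arrays, and 92.1 and 114 on the EG arrays. All Day6 arrays of both genes lay apart from E11.5 PGC. Phf19, a partner of Polycomb complex 2, fell by 2.77 ± 0.60 at Day6, and Bcl7c, a SWI/SNF subunit, by 2.33 ± 0.34. In EG, Bcl7c fell by 2.13 ± 0.34, Mbd3, a core NuRD subunit, by 2.06 ± 0.35, and the scaffold Sin3b by 1.24 ± 0.29. Kdm4c, a demethylase of lysine 9 on histone H3, rose by 1.34 ± 0.30 in EG.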

How the data were processed

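Gene expression was measured on 8 one-colour arrays, 2 for each of 4 groups taken from the sample labels. Per the labels' protocols, RNA was amplified to amino allyl RNA and labelled with Cy5. The authors deposited linear intensity values scaled to a common array median, with some cells empty; how they set background and scale is not given in the sources used here, and empty cells were kept missing. Log2 intensity was fitted with limma 3.58.1 in R 4.3.3 (lmFit and eBayes over all 8 arrays, 4 residual degrees of freedom, two-sided), with Benjamini-Hochberg adjustment over the probes that both arrays of both groups measured. The fit without the block was tested on simulated arrays with large planted changes, independent noise of a common spread and no series difference. That test does not cover the shared series differences of these arrays. Genes were named from the platform annotation and updated through RefSeq, which renamed 4 members. Of several probes of a gene the brightest was used. Levels of different probes are not compared, except that the marker sums add them and are led by the brightest probes. Depth does not apply to arrays, and 2 arrays per group limit the precision.

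Named genes were every member called in any comparison or in the F test with or without the block, the 3 highest and 3 lowest changes in each comparison, the widest and narrowest ranges in each role group, and their paralogs. Members and gene lists were chosen with earlier results of these data known. The difference between replicate 1 and replicate 2 over 19524 probes had r = 0.62 for the pair Day3 and E11.5 PGC, 0.547 for Day6 with E11.5 PGC, 0.694 for Day6 with Day3, and -0.025 to 0.061 for EG with any of these, which follows the array series in the array names; the series was therefore used as the block. Alternatives were quantile normalization, centring, a pseudocount of 2, removal of the dimmest 25% of probes, a trended robust variance, the mean over probes, the 4 compared arrays alone, the block and leaving out each array. Leaving out arrays within the blocked fit and the changes within each series were added after the data were seen.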

Additional observations from a re-analysis of the deposited data

How the results depend on the processing

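At Day6 over E11.5 PGC, 3 members were called; the count was 5 with quantile normalization, 7 with a pseudocount, 6 without the dimmest 25% of probes, 6 with trended variance, 18 with the replicate block, 0 with the 4 compared arrays alone, and 0 to 2 with an array left out. In EG over E11.5 PGC, 7 were called; the count was 17 with the replicate block, 13 with the 4 compared arrays alone, and 0 to 1 with an array left out. At Day3 the count of 0 became 8 with the replicate block, and for EG over Day6 the count of 0 became 1. The F test called 3, against 6 with centring, 6 with a pseudocount, 7 without the dimmest 25%, 6 with trended variance, 20 with the replicate block and 0 to 4 with an array left out. With the replicate block and an array left out, the counts were 0 to 2 at Day3, 3 to 13 at Day6 (3 and 11 without Day6 replicate 1 and 2), 5 to 15 in EG and 5 to 16 in the F test (9 and 11 without the Day3 arrays, 14 and 16 without the Day6 arrays). Quantile normalization, centring, a pseudocount, trended variance, the mean over probes or the removal of dim probes left the EG count at 7 or 8. For Day6 over Day3 every alternative gave 0. Calls over all probes moved as well. At Day3 they went from 431 to 1725 with the replicate block. At Day6 they went from 1734 to 4790 with the block and to 578 with the 4 compared arrays alone. In EG they went from 2321 to 4905 and to 3804. In these comparisons every fit with an array left out called fewer of all probes than the same fit with all arrays. The F test went from 1783 to 5361 probes with the block. The cause of these moves was not tested, and no called change reversed its sign. With 2 arrays per group and 2 members in the dimmest 25% of probes, small changes and dim genes are the least certain.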
